A study of Mus musculus with 12 samples.

Results

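Collagen genes form a large family of secreted or membrane-bound proteins built from triple helices, and this account follows 9 of them through sorted cells of the embryonic mouse ventral spinal cord: Col25a1, the 3 collagen VI chains Col6a1, Col6a2 and Col6a3, the fibrillar chains Col1a1, Col1a2 and Col3a1, and the basement membrane chains Col4a1 and Col4a2. The 9 genes were picked by name, with earlier results of these data known, to set chains higher in GFP-positive cells beside chains usually made by mesenchyme and vessels. They are 9 of 44 collagen chains and of 30740 gene symbols in the deposited tables, and all 9 passed the filter on low counts in the edgeR comparisons between sorts and between genotypes and in the interaction. The comparison of sorts was therefore used in choosing them and is described without a test.

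The embryos were CB6F1/J mice at embryonic stage E12.5, and every library came from ventral cord carrying Hb9:GFP, a reporter driven by the promoter of Mnx1 (Hb9), a motor neuron gene. Cells of pooled embryos were dissociated with papain and sorted. GFP-positive cells gave 5 control and 5 Arhgap35 knockout libraries, and GFP-negative cells gave 1 library of each genotype. Arhgap35 encodes the protein p190. Controls, titled wild type, were littermates that could be wild-type or p190+/-, so some control pools may hold heterozygous cells, and the cell type label reads motor neuron for the GFP-negative samples as well. The labels do not say that replicates came from separate litters, so the p-values below measure the spread between these libraries, which may be technical.

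Collagen VI is a microfibril protein of connective tissue that also surrounds muscle and nerve, and its α1, α2 and α3 chains assemble inside the cell before secretion. Collagen IV α1 and α2 chains join in a fixed ratio into the network of basement membranes, including those of blood vessels. Collagens I and III are the main fibril-forming collagens of mesenchyme, and collagen XXV is a transmembrane collagen known from neurons, where it is needed for motor axons to innervate muscle.

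Each library held 23.7 to 33.8 M estimated counts. Levels are given as CPM (counts-per-million, with TMM-scaled library sizes) and, where genes are set against each other, as the deposited TPM (transcripts-per-million, which account for transcript length). A floor of 3 counts corresponded to 0.0890 to 0.127 CPM. Arhgap35 stood at 161, 202, 178, 187 and 135 CPM in control replicates 1 to 5 of GFP-positive cells and at 98.6, 88.2, 103, 106 and 89.2 CPM in knockout replicates 1 to 5. The control GFP-negative library had 155 CPM and the knockout one 96.3 CPM. All knockout libraries lay below all control libraries. The sources used here do not say which stretch of the gene is missing, and reads outside that stretch say nothing of the genotype. The sort was clear in motor neuron genes: the summed level of 10 motor neuron markers was 1992 to 2572 CPM in GFP-positive and 81.2 to 85.7 CPM in GFP-negative libraries. All 10 were higher in GFP-positive cells in edgeR's quasi-likelihood test, which called 30.1% of all genes higher. The leading markers were Prph, a neuronal intermediate filament (453 ± 83.3 CPM in GFP-positive cells, SD, n = 10, against 3.22 and 3.25 CPM in the 2 GFP-negative libraries), Ret, a receptor for glial neurotrophic factors (404 ± 39.5 against 16.1 and 16.5 CPM), and Isl1, a motor neuron homeodomain factor (309 ± 35.3 against 26.5 and 25.9 CPM).

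The genes lie on 6 chromosomes, with 2 close pairs. Col4a1 (chr8:11198423-11312826, minus strand, GRCm38) and Col4a2 (chr8:11312805-11449287, plus strand) are transcribed away from each other from start sites whose first exons overlap by 22 bases. Col6a2 (chr10:76595762-76623630) and Col6a1 (chr10:76708792-76726168) lie 85.2 kb apart on the minus strand. Col6a3 (chr1:90765923-90843971, minus strand) and Col3a1 (chr1:45311538-45349706, plus strand) share a chromosome, while Col25a1 (chr3:130131501-130599877, plus strand), Col1a1 (chr11:94936224-94953042, plus strand) and Col1a2 (chr6:4504814-4541544, plus strand) stand alone.

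Promoter windows (250 bases before to 50 after the start, RefSeq, GRCm38.p6) were matched for 8 of the 9 genes, Col1a1 being the one without an entry. The pair below is shown because Col4a1 and Col4a2 went in opposite directions between sorts although their windows share 78 bases. Each is written 5′ to 3′ on its own gene's strand, and capitals mark CCAAT or GGGCGG matches on either strand.
Col4a1 (chr8:11312777-11313076, minus strand): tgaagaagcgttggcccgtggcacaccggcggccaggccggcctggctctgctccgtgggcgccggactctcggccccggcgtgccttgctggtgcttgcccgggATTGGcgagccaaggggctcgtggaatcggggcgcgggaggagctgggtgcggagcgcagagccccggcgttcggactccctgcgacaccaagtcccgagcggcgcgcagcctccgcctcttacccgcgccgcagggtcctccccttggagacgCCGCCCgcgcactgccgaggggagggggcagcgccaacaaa
Col4a2 (chr8:11312555-11312854, plus strand): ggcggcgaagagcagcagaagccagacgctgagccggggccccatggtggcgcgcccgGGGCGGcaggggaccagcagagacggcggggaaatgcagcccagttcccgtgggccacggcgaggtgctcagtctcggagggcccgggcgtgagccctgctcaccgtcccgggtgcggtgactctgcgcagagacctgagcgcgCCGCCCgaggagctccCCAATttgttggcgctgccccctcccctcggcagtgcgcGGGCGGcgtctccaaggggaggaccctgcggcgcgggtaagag
The Col4a1 window held 1 CCAAT and 1 GGGCGG match, and the Col4a2 window held 1 CCAAT, 3 GGGCGG and 1 CCCNNGGG match.

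The collagen VI windows are shown because the 3 chains stood above GFP-negative cells by the widest margins of the 9 genes. Col6a2 has 2 RefSeq windows, and the one at the outer start of the gene model is given. Capitals again mark GGGCGG matches.
Col6a1 (chr10:76725995-76726294, minus strand): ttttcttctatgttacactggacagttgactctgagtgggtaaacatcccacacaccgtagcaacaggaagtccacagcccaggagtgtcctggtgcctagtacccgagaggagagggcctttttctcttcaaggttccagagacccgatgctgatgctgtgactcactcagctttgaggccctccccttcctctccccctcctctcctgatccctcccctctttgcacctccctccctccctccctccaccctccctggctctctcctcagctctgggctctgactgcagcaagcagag
Col6a2 (chr10:76623581-76623880, minus strand): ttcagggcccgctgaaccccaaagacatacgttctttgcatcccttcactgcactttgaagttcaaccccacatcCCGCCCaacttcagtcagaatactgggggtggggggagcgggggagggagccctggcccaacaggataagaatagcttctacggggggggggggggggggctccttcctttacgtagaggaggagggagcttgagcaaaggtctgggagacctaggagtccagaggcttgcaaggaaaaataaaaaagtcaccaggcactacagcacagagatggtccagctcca
Col6a3 (chr1:90843922-90844221, minus strand): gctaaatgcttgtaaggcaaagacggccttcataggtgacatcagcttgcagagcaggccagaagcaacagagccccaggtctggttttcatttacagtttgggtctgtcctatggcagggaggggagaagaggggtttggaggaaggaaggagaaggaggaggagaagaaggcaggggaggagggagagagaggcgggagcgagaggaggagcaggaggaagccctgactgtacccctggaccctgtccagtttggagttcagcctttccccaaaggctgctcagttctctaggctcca
The motifs searched, on both strands, were TATAAA, the core of the TATA box, CCAAT, the binding letters of nuclear factor Y, GGGCGG, the GC box, TAATTA, a homeodomain core, and CCCNNGGG, an Ebf core. None was found in the Col6a1 and Col6a3 windows, and the Col6a2 window printed held 1 GGGCGG match, with 3 in its other window. No window of the 8 genes held TAATTA, and Col3a1 alone held TATAAA, with 1 match. Over 32851 windows of 300 bases, TATAAA was held by 13.6%, CCAAT by 37.4%, GGGCGG by 35.7%, TAATTA by 5.29% and CCCNNGGG by 13.7%. A match is only a run of letters, and its absence says nothing of a factor's binding.

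The first question was which of the 9 genes GFP-positive cells carried and at what level. The 3 collagen VI chains and Col4a2 were above both GFP-negative libraries in all 10 GFP-positive libraries. Col1a1 and Col3a1 were below both in all 10, and Col1a2 and Col4a1 were below both in 9 of 10. Col25a1 was above both in 9 of 10, but by a small margin. Over all 19763 genes tested, 29.1% had no overlap between sorts in the upward and 31.7% in the downward direction. By edgeR's test, 61.9% of genes were called, 30.1% higher and 31.8% lower. In bulk libraries such as these, fewer cells of a type and less RNA per cell cannot be told apart.

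**Figure D1:**
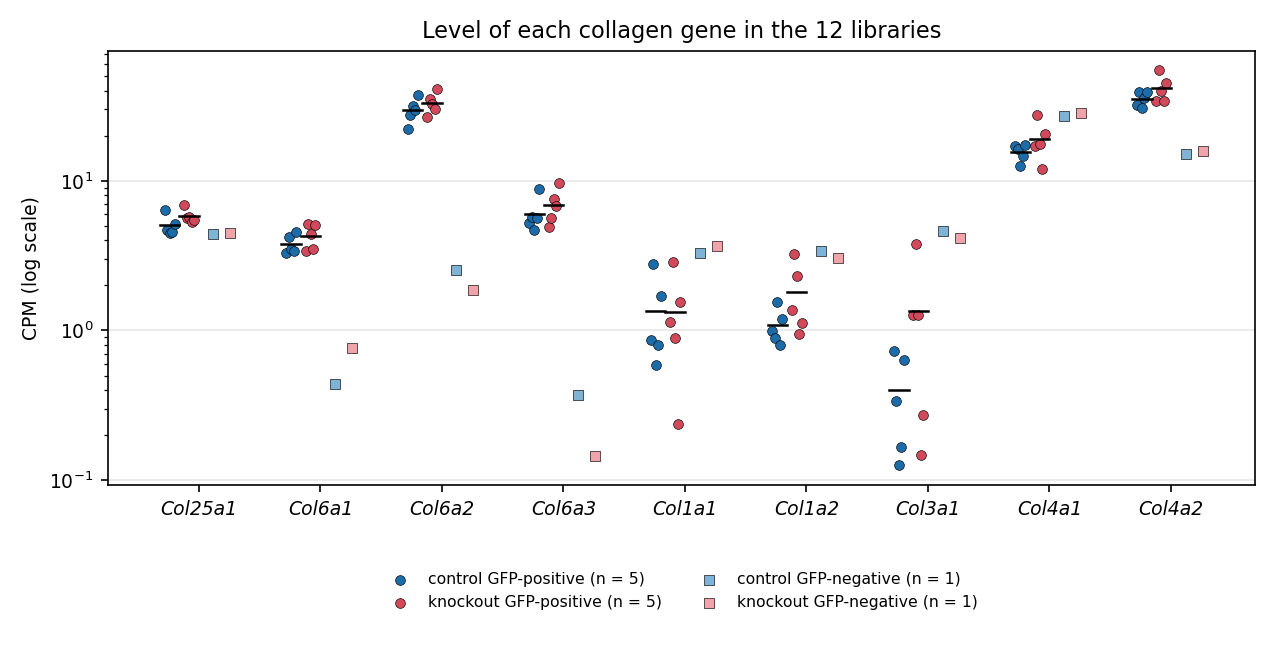
Level of each of the 9 collagen genes in CPM on a log axis, one point per library; circles are GFP-positive and squares GFP-negative libraries, blue shades control and red shades knockout, and black bars are means of 5 libraries. Collagen VI and Col4a2 points of GFP-positive cells lie above both squares, Col1a1 and Col3a1 points lie below them, and Col25a1 points lie close to them.

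Col6a2 encodes the α2 chain of collagen VI. It stood at 22.4, 27.6, 31.4, 29.5 and 37.4 CPM in control replicates 1 to 5 and at 26.6, 35.0, 32.4, 30.2 and 41.0 CPM in knockout replicates 1 to 5. The GFP-negative libraries held 2.54 CPM (control) and 1.86 CPM (knockout). Every GFP-positive library was far above both, and the ratio of the means was 14.2.

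Col6a1 encodes the α1 chain and was carried at a lower level. Control replicates 1 to 5 had 3.28, 4.21, 3.52, 3.39 and 4.53 CPM, and knockout replicates 1 to 5 had 3.39, 5.16, 4.41, 3.50 and 5.09 CPM. The GFP-negative libraries had 0.44 CPM (control, 13 counts) and 0.77 CPM (knockout, 21 counts). GFP-positive cells were higher by a ratio of means of 6.70, without overlap.

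Col6a3, the α3 chain, was nearest to the floor in GFP-negative cells, with 11 counts for the control (0.37 CPM) and 4 for the knockout (0.15 CPM). In GFP-positive cells it had 5.26, 5.69, 4.66, 5.60 and 8.76 CPM in control replicates 1 to 5 and 4.92, 5.61, 7.55, 6.74 and 9.74 CPM in knockout replicates 1 to 5. The ratio of means was 24.9, the widest of the 9, and it rests on those few GFP-negative counts. Replicate 5 was the highest in both genotypes for Col6a2 and Col6a3.

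Per length, the 3 chains were unequal. In TPM over 10 GFP-positive libraries (mean ± SD), Col6a2 was at 17.8 ± 3.02, Col6a1 at 2.26 ± 0.399 and Col6a3 at 2.08 ± 0.539. The TPM ratio of Col6a2 to Col6a1 was 7.94 ± 0.873, from 6.72 to 9.07, against 5.76 in the control and 2.52 in the knockout GFP-negative library. The ratio of Col6a3 to Col6a1 was 0.933 ± 0.220. Col6a3 is measured less steadily in TPM than Col6a1 and Col6a2. Its counts per TPM differed by up to 1.78 times between libraries after depth was removed. Those of Col6a1 did not vary and those of Col6a2 varied by 1.04 times. The fibrillar chains varied more, by 2.23 times for Col1a1, 2.09 for Col1a2 and 2.02 for Col3a1, which limits their TPM below.

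Col4a2 and Col4a1, whose products assemble together, went opposite ways between sorts. Col4a2 stood at 31.95, 38.9, 30.6, 35.7 and 38.9 CPM in control replicates 1 to 5 and at 33.99, 54.6, 39.7, 34.4 and 45.2 CPM in knockout replicates 1 to 5 of GFP-positive cells. GFP-negative cells had 15.1 CPM (control) and 15.8 CPM (knockout). The ratio of means was 2.48, with all 10 GFP-positive libraries above both.

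Col4a1 stood at 17.2, 16.3, 12.6, 14.6 and 17.4 CPM in control replicates 1 to 5 and at 17.0, 27.4, 17.7, 11.96 and 20.4 CPM in knockout replicates 1 to 5. The GFP-negative libraries had 27.2 CPM (control) and 28.4 CPM (knockout). GFP-positive cells had 0.620 of the GFP-negative mean, and only knockout replicate 2 reached the GFP-negative range. Of the pair set beside vessels and mesenchyme, Col4a1 alone was below the GFP-negative level.

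The TPM ratio of Col4a2 to Col4a1 separated the sorts with no overlap. It was 2.12, 2.45, 2.49, 2.25 and 2.42 in control replicates 1 to 5 and 2.33, 2.10, 2.31, 3.03 and 2.32 in knockout replicates 1 to 5, with a mean of 2.38 ± 0.262 (SD, n = 10). For GFP-negative cells it was 0.571 (control) and 0.570 (knockout). Col4a2 was therefore the more abundant chain in every GFP-positive library and the less abundant in both GFP-negative libraries. In CPM the ratios were 2.27 ± 0.288 and 0.556 and 0.557. The kit does not keep strand, so reads in the 22 shared bases cannot be given to either gene by strand, and Col4a2 also shares 43 exonic bases with Gm15419 on the other strand.

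**Figure D2:**
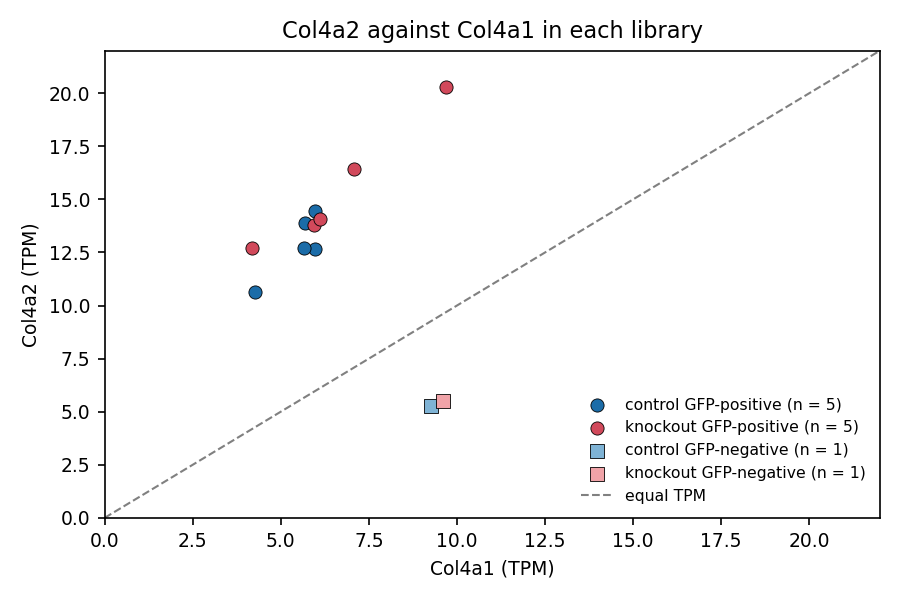
Col4a2 against Col4a1 in TPM, one point per library, with the dashed line marking equal TPM. The 10 GFP-positive libraries lie above the line, with ratios of 2.10 to 3.03, and both GFP-negative libraries lie below it, at 0.570 and 0.571.

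The fibrillar chains were low in both sorts. Col3a1, the single chain of collagen III, had 0.73, 0.34, 0.13, 0.17 and 0.64 CPM in control replicates 1 to 5 and 1.26, 3.75, 1.26, 0.15 and 0.27 CPM in knockout replicates 1 to 5 of GFP-positive cells. GFP-negative cells had 4.61 CPM (control) and 4.13 CPM (knockout). GFP-positive cells had 0.199 of the GFP-negative mean, and the lowest library, control replicate 3, held 3 counts.

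Col1a1 encodes the α1 chain of collagen I. It had 0.86, 2.76, 0.59, 0.79 and 1.69 CPM in control replicates 1 to 5 and 1.14, 2.85, 0.90, 0.24 and 1.54 CPM in knockout replicates 1 to 5. The GFP-negative libraries had 3.29 and 3.65 CPM. The ratio of means was 0.385, and replicates 2 and 5 were the highest in both genotypes.

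Col1a2, the partner chain, had 0.99, 0.89, 1.55, 0.79 and 1.19 CPM in control replicates 1 to 5 and 1.38, 3.26, 2.33, 0.95 and 1.13 CPM in knockout replicates 1 to 5. The GFP-negative libraries had 3.42 CPM (control) and 3.07 CPM (knockout), and the ratio of means was 0.446. Knockout replicate 2 lay between them, and the other 9 GFP-positive libraries lay below both. Between the highest and lowest GFP-positive library, Col3a1 differed by 29.8 times and Col1a1 by 11.99 times, against 1.55 times for Col25a1 and 1.57 times for Col6a1.

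The mesenchyme label was checked on 12 marker genes. Their summed level was 18.0 to 31.1 CPM in GFP-positive and 17.4 to 18.8 CPM in GFP-negative libraries, and 9 of the 12 averaged under 1 CPM in each sort, including Twist1 (0.0231 and 0.124 CPM) and Lum (0.0643 and 0.0339 CPM). Of 6 tested in edgeR, 2 were higher and 3 lower in GFP-positive cells, where 30.1% of all genes were called higher and 31.8% lower. Pdgfra, a growth factor receptor of mesenchyme and of glial precursors, fell from 4.78 and 5.92 CPM in the GFP-negative libraries to 0.517 ± 0.137 CPM in GFP-positive ones (log2 fold change -3.37, edgeR adjusted p = 2.01e-08). Dcn, a collagen-binding proteoglycan, was also lower (log2 fold change -1.58, edgeR adjusted p = 0.0294), while the microfibril gene Fbn1 was higher (1.03, edgeR adjusted p = 3.05e-05). Postn, a matrix protein that accounts for much of the rest of the sum and is named here after its values were seen, was higher too (9.74 ± 4.96 against 0.881 and 0.767 CPM). The fibrillar chains are therefore named here by their products, without assigning them to a cell type.

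Markers of vessel cells differed in their pattern. The summed level of 8 pericyte markers was 23.8 to 43.9 CPM in GFP-positive and 166 to 167 CPM in GFP-negative libraries, and 6 of 7 tested were lower in GFP-positive cells. Notch3, a receptor of mural cells that neural progenitors also carry, fell by 3.71 and Pdgfrb, a mural cell growth factor receptor, fell by 2.84 on the log2 scale (edgeR adjusted p = 7.42e-07 and 0.000278). Notch3 alone gave 120 and 126 CPM of the 2 GFP-negative sums, against 9.39 ± 3.30 CPM in GFP-positive libraries, so the summed difference is mostly that gene. In GFP-positive libraries Rgs5 was the most abundant of the 8 (17.3 ± 3.78 CPM). Rgs5 did not pass (log2 difference 0.0017, 95% confidence interval -0.48 to 0.48). The 12 endothelial markers summed to 5.39 to 21.8 CPM in GFP-positive and 14.6 to 18.9 CPM in GFP-negative libraries, so the sorts overlapped. Of 11 endothelial genes tested, 4 were called lower and 0 higher, and 2 had a log2 fold change above 0. Over all genes, 30.1% were called higher and 31.8% lower. Esam was among the lower (1.29 ± 0.241 against 2.78 and 2.89 CPM, edgeR adjusted p = 9.97e-05). Tie1 (1.14 ± 0.590 against 2.13 and 2.26 CPM, edgeR adjusted p = 0.0765) did not pass. Egfl7 did not pass either and went the other way (2.79 ± 0.410 against 1.97 and 2.45 CPM, edgeR adjusted p = 0.116).

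Col25a1 was named as a neuronal collagen, and its margin between sorts was narrow. It had 6.36, 4.71, 4.45, 4.52 and 5.12 CPM in control replicates 1 to 5 and 6.89, 5.65, 5.71, 5.31 and 5.44 CPM in knockout replicates 1 to 5. The GFP-negative libraries had 4.44 CPM (control) and 4.46 CPM (knockout). The ratio of means was 1.22, and control replicate 3 lay between the GFP-negative values. The data thus place Col25a1 in both sorts, at 1.79 ± 0.287 TPM in GFP-positive and 1.35 TPM in GFP-negative cells.

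Both GFP-negative libraries carry replicate number 1, and libraries that share a number varied together. Set against its own GFP-negative library, GFP-positive replicate 1 had Col25a1 at a ratio of 1.43 in control and 1.55 in knockout. With the replicate number as a block, the fitted log2 difference of Col25a1 was 0.57, against 0.28 without it. The same replicate 1 libraries also had the highest summed level of 6 sensory neuron markers among GFP-positive libraries, 40.7 CPM in control and 41.1 CPM in knockout against 19.6 to 35.1 CPM in the other 8, and the part of this in the Col25a1 values was not tested. For Col4a1 the replicate 1 ratios were 0.630 and 0.597, for Col4a2 2.11 and 2.15, and for Col3a1 0.158 and 0.305, in control and knockout.

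Ordered by TPM in GFP-positive cells, the genes ran Col6a2, Col4a2, Col4a1, Col6a1, Col6a3, Col25a1, Col1a2, Col1a1 and Col3a1. Col6a2 and Col4a2 (14.2 ± 2.63 TPM) overlapped, as did Col6a1, Col6a3 and Col25a1, and as did Col1a2 (0.841 ± 0.336), Col1a1 (0.648 ± 0.350) and Col3a1 (0.367 ± 0.443). Col4a1 (6.05 ± 1.54) overlapped neither neighbour in range. In GFP-negative cells the order by mean TPM was Col4a1, Col4a2, Col3a1, Col1a1, Col1a2, Col25a1, Col6a2, Col6a1 and Col6a3, with 1 library per genotype and so no spread. Neither library alone had this order, as the genes from Col3a1 to Col6a2 changed places. Col1a1 was at 1.24 TPM in the control and 1.75 TPM in the knockout library, and Col6a2 at 1.39 and 1.05 TPM.

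Among all 44 collagen chains, Col6a2 ranked 5 and Col4a2 ranked 6 by mean TPM in GFP-positive cells, behind Col26a1 (30.01 TPM), Col9a2 (23.9), Col11a2 (23.8) and Col9a3 (22.3). In GFP-negative cells Col6a2 ranked 24 and Col6a3 ranked 39, while Col4a1 ranked 10, and Col2a1, the main cartilage collagen, led with 92.5 TPM. The 9 genes took 20.3 to 28.5% of collagen TPM in GFP-positive and 7.58 to 7.62% in GFP-negative libraries. Collagen VI alone took 9.0 to 14.0% and 0.503 to 0.609%. The fibrillar chains Col1a1, Col1a2 and Col3a1 together took 0.448 to 1.93% and 1.60%. Their counts per TPM differed by 2.02 to 2.23 times between libraries, so the fibrillar shares and TPM order are less steady.

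The 35 other collagen chains show what the rest of the family did, and their comparison of sorts may be tested. Of 31 with enough counts, 9 were higher and 15 lower in GFP-positive cells in edgeR's test, and 7 did not pass. Over all genes, 30.1% were called higher and 31.8% lower. The median log2 fold change of the 31 was -0.64, against 0.018 over all genes. Without the control GFP-negative library, 5 were higher and 9 lower, and limma on log2(TPM + 1) called 4 higher and 9 lower. The chains with the smallest p among the higher were Col11a2, a minor fibrillar chain (46.8 ± 4.03 CPM, SD, n = 10, against 26.4 CPM, control, and 24.8 CPM, knockout, for GFP-negative cells), and Col8a1, a short-chain network collagen (5.67 ± 1.38 against 0.644 and 0.803 CPM). Col8a1 rose by 2.96, Col24a1 by 1.66, Col11a2 by 0.87 and Col9a2 by 0.54 on the log2 scale (edgeR adjusted p = 2.88e-06, 3.06e-05, 9.89e-07 and 9.82e-05).

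Among the lower chains, Col5a2, a regulator of fibril diameter, had 9.83 ± 0.744 CPM in GFP-positive cells against 36.5 and 40.8 CPM (log2 fold change -1.97, edgeR adjusted p = 6.50e-11). Col14a1, a fibril-associated collagen, had 5.89 ± 0.552 against 29.8 and 32.6 CPM (-2.41, edgeR adjusted p = 1.90e-10). Col18a1, the basement membrane collagen that gives rise to endostatin, had 6.16 ± 1.28 against 29.1 and 32.7 CPM (-2.33, edgeR adjusted p = 3.84e-08). Col9a3 fell by 0.92 (edgeR adjusted p = 1.27e-07) while Col9a2 rose, so the 2 abundant chains of collagen IX also went opposite ways.

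**Figure D3:**
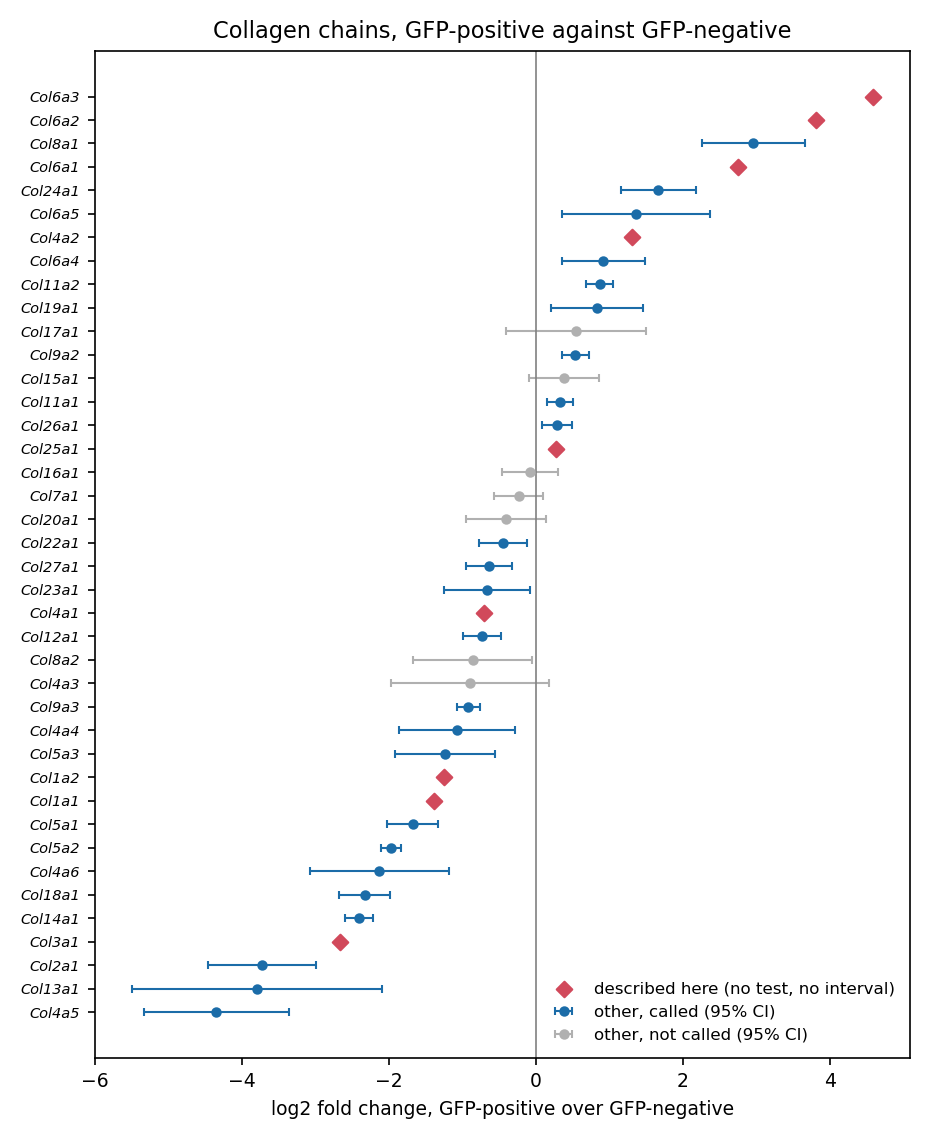
Log2 fold change of every tested collagen chain between GFP-positive and GFP-negative cells. Red diamonds are the 9 genes described here, shown without interval because they were chosen on this contrast; circles are the other chains with 95% confidence intervals, blue where edgeR called them and grey where it did not. Col6a3 and Col6a2 lie at the top, and Col4a2 and Col4a1 lie on opposite sides of 0.

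Genes for collagen folding and crosslinking changed in both directions. Of 33 tested, 8 were higher and 14 lower in GFP-positive cells in edgeR, with a median log2 fold change of -0.21, where 30.1% of all genes were called higher and 31.8% lower. Adamts2, a procollagen protease, had 14.8 ± 1.79 CPM in GFP-positive cells against 2.78 and 3.07 CPM (log2 fold change 2.33, edgeR adjusted p = 1.85e-08). P4ha2, a prolyl hydroxylase subunit, had 20.01 ± 1.94 against 4.81 and 6.28 CPM (1.85, edgeR adjusted p = 4.32e-08). Bmp1, the procollagen C-proteinase, and Mia3, which loads collagen into transport vesicles, were higher by 0.62 and 0.30 on the log2 scale (edgeR adjusted p = 4.83e-06 and 8.65e-06). The prolyl hydroxylase subunit P4ha3, the lysyl oxidases Loxl2 and Loxl3 and the protease Tll2 fell by 2.68, 2.19, 2.54 and 2.47 (edgeR adjusted p = 4.99e-07, 4.95e-07, 1.09e-06 and 3.24e-06).

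Collagen receptors were mostly lower: 4 of 17 tested were higher and 12 lower in edgeR, where 30.1% of all genes were called higher and 31.8% lower. The receptors had a median log2 fold change of -0.80, and limma on log2(TPM + 1) called 7 lower. Ptprd, a receptor phosphatase of neurons, had 615 ± 35.1 CPM in GFP-positive cells against 283 and 275 CPM (log2 fold change 1.14, edgeR adjusted p = 7.06e-09). Itgb1, the shared β subunit of collagen-binding integrins, rose by 0.88 (edgeR adjusted p = 1.78e-07). The 2 discoidin domain receptors, which bind collagen directly, parted: Ddr2 rose by 2.08 from 0.508 and 0.584 CPM (edgeR adjusted p = 0.00148) and Ddr1 fell by 2.31 from 549 and 544 CPM (edgeR adjusted p = 4.62e-07). The integrin subunit Itga10 rose by 0.53 (edgeR adjusted p = 0.00171), a call that was lost with limma on log2(TPM + 1) without a filter (0.43, adjusted p = 0.0725). Mrc2, an endocytic collagen receptor, Adgrg6, an adhesion receptor of Schwann cells, and Lair1, an immune cell receptor, fell by 3.38, 2.59 and 3.64 (edgeR adjusted p = 1.12e-08, 4.38e-07 and 7.74e-07).

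Basement membrane partners of collagen IV gave 4 higher and 10 lower of 16 tested in edgeR, where 30.1% of all genes were called higher and 31.8% lower. These partners had a median log2 fold change of -1.06 (6 lower with limma on log2(TPM + 1)). The laminin chain genes Lama3 and Lamb3 were higher, with 6.26 ± 1.31 CPM against 0.949 and 0.694 CPM for Lama3. Their log2 fold changes were 2.92 and 2.37 (edgeR adjusted p = 1.49e-06 and 0.000259). Agrn, the synapse organiser agrin, had 1113 ± 47.5 CPM in GFP-positive cells against 973 and 1013 CPM, a log2 fold change of 0.16 (edgeR adjusted p = 0.00934). Its call was lost with the replicate number as a block (0.091, edgeR adjusted p = 0.0620) and without the control GFP-negative library (0.13, edgeR adjusted p = 0.152). Lama1, Fn1, Lamc1 and Nid1, which encode widespread laminin chains, fibronectin and nidogen, fell by 1.94, 2.60, 0.77 and 1.36 (edgeR adjusted p = 1.18e-09, 4.51e-09, 4.32e-08 and 1.69e-07). Col4a2 thus stood with the 4 higher and Col4a1 with the 10 lower in direction, as a description only.

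The next question was what loss of Arhgap35 did to the 9 genes in GFP-positive cells. None passed edgeR's test, run without a replicate block: 0 of 9 were called and 0 had an unadjusted p under 0.05. Of 17487 genes, 0.0343% were called and 2.14% had an unadjusted p under 0.05. The log2 fold change was above 0 for 8 of 9 genes, with a median of 0.21. Over all genes 48.9% were above 0 and the median was -0.0016. DESeq2 and limma-voom also called 0 of the 9. The other settings called 0 of those they tested, which left out Col1a1, Col1a2 and Col3a1 under the filter on TPM and Col3a1 under the filter on CPM.

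Col25a1, Col6a1 and Col6a2 were each higher in the knockout than in the control library of the same number in 5 of 5 pairs, which was so for 3.11% of all genes. The control and knockout groups overlapped in all 9 genes, against 0.223% of genes with every knockout library above and 0.315% with every one below all controls. The mean of Col25a1 was 5.03 ± 0.786 CPM for control and 5.80 ± 0.632 CPM for knockout libraries (SD, n = 5 each). Its log2 fold change was 0.20, with 95% confidence limits of -0.06 and 0.46 (edgeR adjusted p = 0.9999). For Col6a1 the log2 fold change was 0.19 (-0.15 to 0.52), and for Col6a2 it was 0.16 (-0.16 to 0.48). These intervals do not use the pairing of libraries by number. With the replicate number as a block in edgeR, 4 of the 9 genes had an unadjusted p under 0.05, against 5.08% of all genes, and 0 were called (the lowest edgeR adjusted p was 0.788, for Col6a2). The 4 were all higher in the knockout. The blocked log2 fold change was 0.21 for Col25a1 (95% confidence interval 0.02 to 0.40) and 0.16 for Col6a2 (0.05 to 0.27). It was 0.64 for Col1a2 (0.07 to 1.22) and 0.22 for Col4a2 (0.04 to 0.40). For Col6a1 it was 0.18 (-0.04 to 0.40), an interval that includes 0.

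Col6a3 had a log2 fold change of 0.21 (95% confidence interval -0.25 to 0.66) and was higher in 3 of 5 pairs. On log2(TPM + 1) it was -0.086, so its sign depends on the unit, beside the uneven counts per TPM given above. Col4a1 and Col4a2 had log2 fold changes of 0.27 (-0.15 to 0.69) and 0.24 (-0.06 to 0.53), and were higher in 3 and 4 of 5 pairs. Without knockout replicate 2 these were 0.099 and 0.12. The TPM ratio of Col4a2 to Col4a1 was 2.35 ± 0.156 for control and 2.42 ± 0.356 for knockout libraries (SD, n = 5 each), a difference within the spread.

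The fibrillar chains had the widest intervals. Col3a1 had 0.399 ± 0.272 CPM for control and 1.34 ± 1.45 CPM for knockout libraries (SD, n = 5 each). Its log2 fold change was 1.68, with an interval of -0.19 to 3.54 (edgeR adjusted p = 0.9999, unadjusted p = 0.0731). It rested on 3 to 22 counts per control and 5 to 91 per knockout library, and without knockout replicate 2 it was 0.81. Col1a2 had 1.08 ± 0.299 and 1.81 ± 0.969 CPM, a log2 fold change of 0.73 (-0.02 to 1.47, edgeR unadjusted p = 0.0547), and 0.40 without that library. Col1a1 was at -0.02 (-1.33 to 1.30), and at -0.49 without it.

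**Figure D4:**
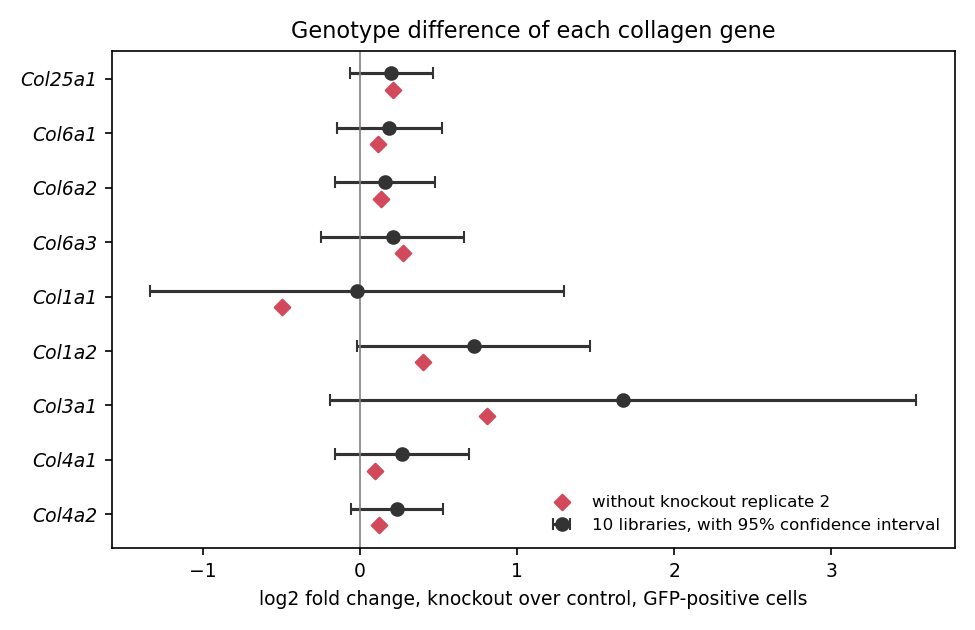
Log2 fold change of knockout over control for each of the 9 genes in GFP-positive cells, with 95% confidence intervals from edgeR over 10 libraries; red diamonds give the value without knockout replicate 2. The fit does not use the replicate numbers, and every interval from it crosses 0. With the replicate number as a block, the intervals of Col25a1, Col6a2, Col1a2 and Col4a2 do not. Col3a1 moves from 1.68 to 0.81 without knockout replicate 2.

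Knockout replicate 2 stood apart in endothelial, erythroid and pericyte markers. It had the highest level of the 10 GFP-positive libraries for Col1a1, Col1a2, Col3a1, Col4a1, Col4a2 and Col6a1. The margin to the next library was small for Col1a1 (2.85 against 2.76 CPM) and Col6a1 (5.16 against 5.09 CPM). Its 12 endothelial markers summed to 21.8 CPM against at most 13.1 CPM in the other GFP-positive libraries, and Kdr, an endothelial receptor, reached 6.97 CPM. Its 6 erythroid markers summed to 27.8 against at most 16.6 CPM, and its 8 pericyte markers to 43.9 against at most 36.4 CPM. Rgs5, which did not pass between sorts, gave 24.2 CPM of that pericyte sum. Its mesenchyme sum, 25.4 CPM, lay inside the range of the others. So did its macrophage (2.10 CPM), Schwann and crest (24.9 CPM), sensory neuron (33.3 CPM) and progenitor (501 CPM) sums. The part of endothelial, erythroid and pericyte cells in the collagen values was not tested.

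Over all 10 GFP-positive libraries, knockout replicate 2 included, 9 of 9 endothelial and 4 of 4 erythroid markers tested had a log2 fold change above 0 in knockout cells. Of all genes, 48.9% were above 0. The endothelial and erythroid medians were 0.59 and 0.62, and 0 of these markers passed edgeR's threshold (1 endothelial gene had an unadjusted p under 0.05). Mesenchyme markers were above 0 in 3 of 5, with a median of 0.0027, and pericyte markers in 4 of 5, with a median of 0.13.

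**Figure D5:**
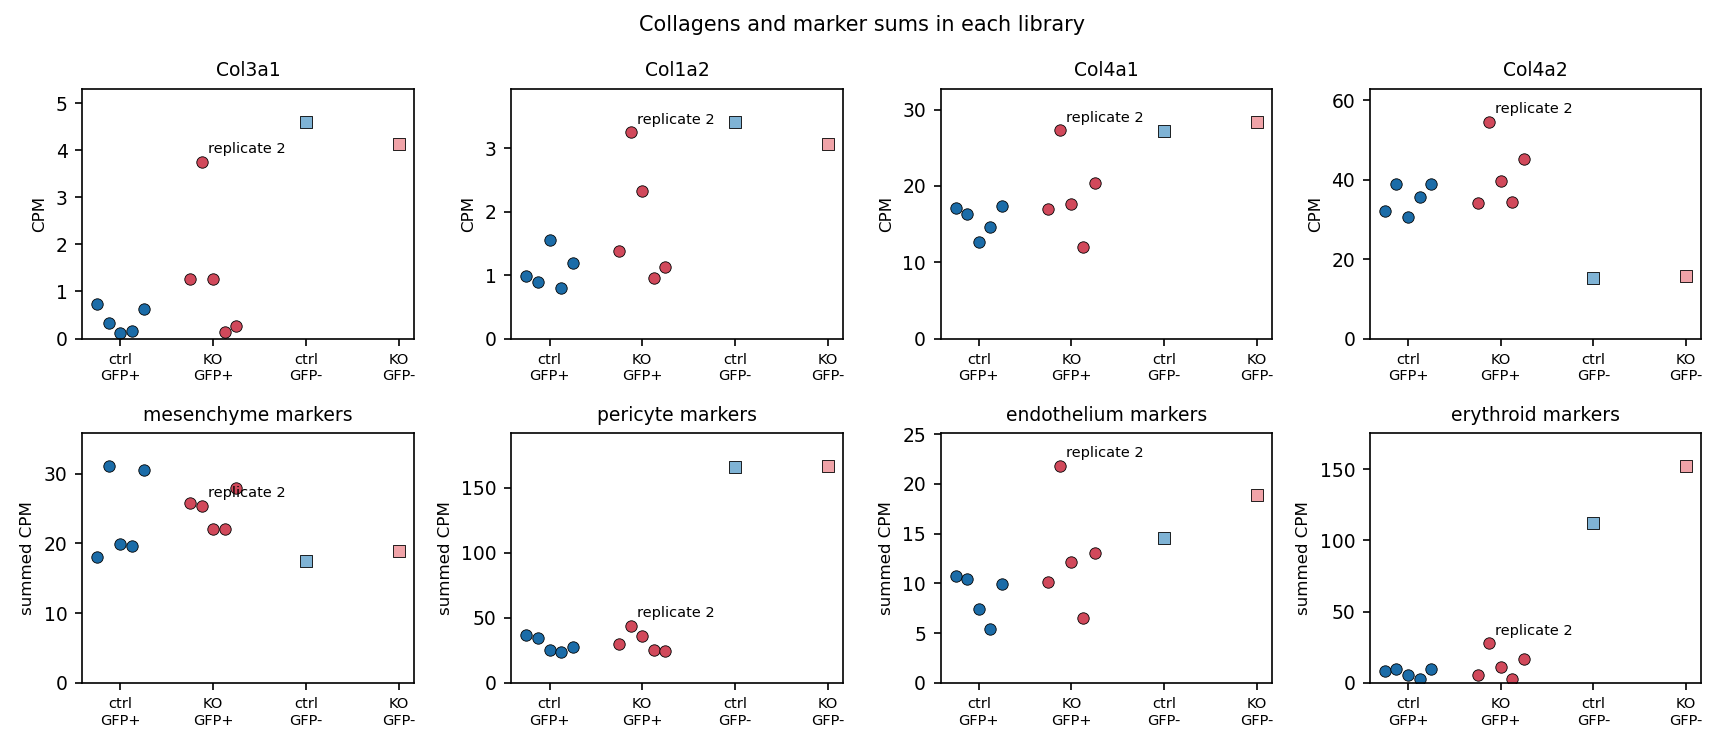
Levels of Col3a1, Col1a2, Col4a1 and Col4a2 in CPM (top) and summed CPM of mesenchyme, pericyte, endothelium and erythroid markers (bottom), one point per library; ctrl is control, KO is Arhgap35 knockout, circles are GFP-positive and squares GFP-negative. Knockout replicate 2 is the highest GFP-positive point in every panel but mesenchyme.

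Across the 10 GFP-positive libraries, which share replicate numbers in pairs and 1 scaling, the members of a protein varied together to different degrees. Pearson's r of log2 CPM was 0.80 for Col6a1 and Col6a2, 0.73 for Col6a2 and Col6a3, and 0.65 for Col6a1 and Col6a3. Without knockout replicate 2 these values were 0.80, 0.80 and 0.86, so their order depends on that library. For Col4a1 and Col4a2 r was 0.86, and 0.69 without knockout replicate 2. Col1a1 and Col1a2 gave 0.31, and -0.06 without that library. The highest value of all 36 pairs joined different proteins, Col6a1 and Col4a2, at 0.90 (0.91 without that library). Col25a1 followed neither collagen VI nor Col4a2, with r of -0.30 to 0.07. Its r was 0.65 with Col3a1 (0.78 without knockout replicate 2) and 0.40 with Col4a1.

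The genes most like 4 of the chains over the same 10 libraries were listed out of 12672 genes. For Col4a1 they were Camk2n1, a kinase inhibitor (r = 0.92), the vascular laminin chain Lama4 (0.92), Kdr (0.91), the globin gene Hba-a2 (0.91) and the semaphorin receptor Plxnd1 (0.90). For Col3a1 they were Mrpl2 (0.96), Etv5 (0.93), the glucose transporter gene Slc2a1 (0.91), the growth factor gene Igf2 (0.90) and Klf3 (0.87). For Col6a1 they were Ndrg1 (0.96), Elk3 (0.95), Aldoc (0.94), Rnf128 (0.93) and Pip4k2b (0.93), and for Col25a1 Rell1 (0.92), Tmem123 (0.91), Ift81 (0.91), Fras1 (0.91) and Adarb2 (0.91). Knockout replicate 2 was the highest of the 10 libraries for Col4a1 (27.4 CPM), Kdr (6.97 CPM) and Hba-a2 (16.9 CPM). For these lists r without that library was not computed. With 10 points and this many genes the r values are a description only.

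Related genes gave no call for the knockout in edgeR. Of the other collagen chains 0 of 24 tested passed, as with DESeq2 and limma-voom, 1 with an unadjusted p under 0.05: Col11a2 (44.6 ± 3.46 CPM for control, 49.1 ± 3.44 CPM for knockout libraries, SD, n = 5 each, log2 difference 0.14), with Col9a3 next (-0.13). Of folding and crosslinking genes 0 of 32 passed, 1 with an unadjusted p under 0.05, P4ha1, the main prolyl hydroxylase subunit (0.21), with Loxl2 next (0.36). Of receptors 0 of 15 passed, 0 with an unadjusted p under 0.05, and Adgrg6 (0.49) and Itga10 (-0.09) had the smallest p. Of basement membrane partners 0 of 16 passed, 2 with an unadjusted p under 0.05, Lamb1 (0.41) and Nid1 (0.26), and 12 of 16 were above 0 with a median of 0.10.

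The last comparison asked whether the knockout difference was another in GFP-negative cells, from 1 library of each genotype assumed to vary like the GFP-positive groups. No gene of the 9 passed edgeR's interaction test, and 0 had an unadjusted p under 0.05, where 0.0253% of 19763 genes were called and 1.78% had an unadjusted p under 0.05. The differences ran from -1.83 for Col3a1 (95% confidence interval -5.78 to 2.11) to 0.61 for Col6a1 (-0.42 to 1.63), with a median of -0.21, against 0.0061 over all genes. The narrowest interval was that of Col25a1, -0.85 to 0.46, followed by that of Col4a2, -0.92 to 0.56. Col4a1 had -1.22 to 0.81. Related genes gave 0 calls in all 4 lists, and 0 of them had an unadjusted p under 0.05. The genes with the smallest p were Col13a1 (2.87) and Col5a3 (-1.04) of the other chains, Colgalt2 (1.21) and P4ha2 (0.41) of folding, Lair1 (-0.85) and Adgrg6 (-0.51) of receptors, and Lama2 (1.01) and Nid2 (-0.94) of basement membrane partners.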

How the data were processed

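Per the labels' protocols, polyA RNA was made into unstranded TruSeq v2 libraries and sequenced from 1 end over 50 bases. Estimated counts, 1 row per symbol, are the authors' own and carry no normalization. Of them, 40.8% are whole within 1e-09 plus a small fixed share of the count. The authors also deposited TPM values (length-scaled, by a step the labels do not describe), whose columns sum to 974800 to 1018240. Per the submitters' processing notes, kallisto and mm10 were used; no version is given in the sources used here, nor how transcripts were summed to symbols. 31-mers shared with other genes made up at most 1.12% of any of the 9 genes.

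Rounded counts of genes kept by filterByExpr, with TMM scaling, were tested in edgeR 4.0.16 (quasi-likelihood, robust; limma 3.58.1, R 4.3.3, Python 3.11.15, pandas 2.3.3, matplotlib 3.10.9), with p adjusted by Benjamini-Hochberg over the whole fit and calls made at 0.05. Adjusted p of the knockout comparison are near 1 for all 9 genes. The knockout comparison used the 10 GFP-positive libraries, the sort comparison all 12 with genotype as a covariate, and the interaction 4 group means. The scripts were tested on simulated data. Replicates of a group correlated at r of 0.966 to 0.980 on log counts and were not duplicates (chi-square per degree of freedom 8.59 to 26.6).

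Replicate numbers were checked on each library's deviations from its group mean: control and knockout libraries sharing a number had r of 0.209 to 0.506, other pairs at most 0.189, and each of 10 libraries matched its own number best. The numbers were therefore treated as pairs in the counts of pairs and in a blocked fit, which was added as an alternative. The main fits carry no block and do not use the pairs. The labels do not say what the numbers share.

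The 9 genes, the gene lists and the rule for naming genes were chosen with earlier results of these data known. The rule names the 9 genes; for each list and direction the called genes of smallest p, at most 4, or else the 2 of smallest p; the 3 most abundant markers of motor neuron, mesenchyme, pericyte and endothelium lists; and the 5 genes most like Col25a1, Col6a1, Col3a1 and Col4a1. Col2a1, Col26a1, Twist1, Lum, Kdr and Postn fall outside the list part of the rule and were named with their values in view. One gene that the rule names is not reported here. Alternatives comprised other scaling, other filters, limma-voom, DESeq2 1.42.0, log2 TPM in limma (pseudocounts 1 and 0.1), robust fitting off, all 12 libraries together, no genotype covariate, the replicate block and leaving out each library.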

Additional observations from a re-analysis of the deposited data

Results flagged for a closer look

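In 18 groups of 5 libraries (9 genes, 2 genotypes, GFP-positive cells), 2 had a library set apart from the other 4 by Dixon's gap test at the 95% level, and chance alone does this in about 1 of 20 groups. Col25a1 in knockout cells was at 6.89 CPM in replicate 1, with the next library at 5.71 CPM and the lowest at 5.31 CPM. Col6a3 in control cells was at 8.76 CPM in replicate 5, with the next at 5.69 CPM and the lowest at 4.66 CPM. In the other genotype the library of the same number was also the highest for each gene, at 6.36 CPM for Col25a1 and 9.74 CPM for Col6a3.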

How the results depend on the processing

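The 9 genes gave 0 calls for the knockout and 0 for the interaction under every setting run; the fibrillar chains were not tested under the TPM filter (mean of at least 1), where they fell below it, and Col3a1 was not tested for the knockout under the CPM filter. Their lowest adjusted p for the knockout in any setting was 0.788 (Col6a2, replicate block). With the replicate number as a block, the knockout comparison called 5 genes of all tested, against 6 without it, and the interaction called 1, against 5; the block changed no call of the 9, but 4 of them had an unadjusted p under 0.05 with it and 0 without it. DESeq2 called 11 genes for the knockout and 3 for the interaction, and the 3 TPM settings called 0 for the knockout. Leaving out 1 library at a time gave 0 to 8 genes for the knockout and 0 to 6 for the interaction. Between sorts, other collagen chains were called higher for 4 with log2(TPM + 1), 4 with log2(TPM + 0.1) and 5 with log2(TPM + 1) without a filter, and lower for 9 with either pseudocount under the filter; both TPM pseudocounts also gave 7 receptors and 6 basement membrane partners lower. Those filters test fewer genes. Leaving out 1 library gave 5 to 10 chains higher and 9 to 15 lower. The knockout difference of Col6a3 turned to -0.086, -0.12 and -0.086 under the same 3 TPM settings, and that of Itga10 (-0.093) to 0.045, 0.050 and 0.045; the cause was not tested. That of Col1a1 (-0.02) was 0.042 on unfiltered log2(TPM + 1) and -0.49 to 0.42 with 1 library left out, and its interaction (0.17) was -0.27 to 0.65. Low counts limit Col3a1, Col1a1 and Col1a2 in GFP-positive and Col6a3 in GFP-negative cells, and single GFP-negative libraries limit every comparison that uses them.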
